A study of Mus musculus with 6 samples.

Results

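Sterol and fatty acid synthesis genes were followed in bone marrow pro-B cells, the stage at which B lineage precursors rearrange the immunoglobulin heavy chain, with and without Skiv2l. A fixed list of 31 gene symbols defined the group, 21 in the sterol branch and 10 in the fatty acid branch, out of 54752 gene identifiers in each deposited table. Each symbol matched 1 identifier. All animals were adult C57BL/6 mice homozygous for floxed Skiv2l (Skiv2lfl/fl). The 3 mice called Skiv2l-deleted also carried Cd79a-Cre, which recombines in the B lineage from its early stages, and the 3 controls had the floxed alleles with no Cre named. No treatment or culture was described, and there was 1 mRNA library per sorted mouse sample. The sources used here do not give the sex or exact age of the mice or the surface markers of the sort. Since Cre is named in the deleted mice alone, an effect of Cre and an effect of losing Skiv2l cannot be told apart.

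Cells build cholesterol from acetyl-CoA by way of mevalonate, isoprenoid pyrophosphates, squalene and lanosterol. They build fatty acids by carboxylating acetyl-CoA, condensing the product into palmitate, and then elongating and desaturating the chain. Transcription of both branches is governed by the SREBP factors, which SCAP escorts out of the endoplasmic reticulum when sterols are scarce and INSIG proteins hold back when sterols are plentiful. Dividing lymphocytes draw on both branches for new membrane. The SKI complex, whose helicase is the product of Skiv2l, threads messenger RNA into the cytosolic exosome. The comparison therefore asks what the messenger RNA levels of this biosynthetic program were when that decay route was deleted.

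Of the members, 24 had at least 1 promoter window in the RefSeq table for GRCm38.p6, which holds 250 bases before to 50 after each annotated start, and Sqle, Fdft1, Fdps, Stard4, Scd1, Scd2 and Fads1 had none. Below are the 250 bases before the start for Dhcr7 and Fads2, which passed the test described further on, for Srebf2, which narrowly missed it, and for Hmgcs1, a classical SREBP target that was well short of it. They are printed 5′ to 3′ on the gene's strand. Capitals mark 2 motifs: the sterol response letters TCACCCCA (Hmgcs1 also matches TCACNNCAC there, so 1 more base is capital), and CCAAT, the box bound by NF-Y, a partner of SREBP, which reads ATTGG when it lies on the opposite strand. Dhcr7 has 3 annotated starts, and the one shown is the farthest from the gene start in the deposited tables, 7069 bases inside the gene's span. The others lie 22 and 254 bases from that gene start, and the 250 bases before them held neither TCACCCCA nor CCAAT.
Dhcr7 (chr7:143829964-143830213, plus strand): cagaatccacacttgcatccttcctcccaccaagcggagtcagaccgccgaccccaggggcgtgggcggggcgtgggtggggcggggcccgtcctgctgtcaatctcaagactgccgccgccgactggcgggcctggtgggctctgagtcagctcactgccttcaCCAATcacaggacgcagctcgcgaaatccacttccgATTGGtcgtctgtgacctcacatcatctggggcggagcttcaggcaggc
Fads2 (chr19:10101504-10101753, minus strand): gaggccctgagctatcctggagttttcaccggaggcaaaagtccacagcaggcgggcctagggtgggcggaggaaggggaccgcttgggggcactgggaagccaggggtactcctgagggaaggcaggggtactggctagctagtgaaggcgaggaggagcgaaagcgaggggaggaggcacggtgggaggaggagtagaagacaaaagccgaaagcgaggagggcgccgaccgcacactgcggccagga
Srebf2 (chr15:82147019-82147268, plus strand): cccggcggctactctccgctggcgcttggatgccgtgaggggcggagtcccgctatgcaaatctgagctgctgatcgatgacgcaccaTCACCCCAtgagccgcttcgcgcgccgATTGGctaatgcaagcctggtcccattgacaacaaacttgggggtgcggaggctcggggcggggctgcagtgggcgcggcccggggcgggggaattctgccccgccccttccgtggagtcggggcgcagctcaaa
Hmgcs1 (chr13:119690101-119690350, plus strand): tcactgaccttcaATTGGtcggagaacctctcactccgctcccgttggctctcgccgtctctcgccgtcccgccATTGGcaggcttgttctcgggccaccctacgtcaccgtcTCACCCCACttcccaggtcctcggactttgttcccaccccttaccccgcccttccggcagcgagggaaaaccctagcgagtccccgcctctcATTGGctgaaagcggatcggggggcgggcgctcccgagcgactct
The Srebf2 window held TCACCCCA from 162 to 155 bases before the start and 1 inverted CCAAT box downstream of it. The Hmgcs1 window held TCACCCCA from 137 to 130 bases before the start and 3 inverted CCAAT boxes. The Dhcr7 window shown held 1 CCAAT box on each strand, and the Fads2 window held neither motif. Searched on both strands in whole 300-base windows, TCACCCCA was present in Srebf2 and Hmgcs1 alone among the 24 members, against 1.56% of all 32851 windows. TCACNNCAC was present in Dhcr7, Hmgcs1, Hsd17b7 and Msmo1, 4 of 24 members against 3.77% of all windows, and for Dhcr7 it lay in a window not shown, from 130 to 122 bases before another start. CCAAT was present in 16 of 17 sterol and 4 of 7 fatty acid members with a window, against 37.4% of all windows and 38.7% of the windows of genes tested here. GGGCGG and CACGTG were searched as well. GGGCGG was present in 19 of 24 members, against 62.6% of the windows of genes tested here. CACGTG was present in 5 of 24, Dhcr7 included, against 10.4%. The motifs were chosen with these sequences in view, and a member with several starts was counted once if any window matched. A match is a run of letters, not a measured binding site.

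The ratio of FPKM to coverage puts the libraries at 1.74 to 2.40 Gb of aligned sequence, and each held 12975 to 13738 genes at 1 FPKM or more. Skiv2l itself measured 25.4, 20.2 and 46.3 FPKM across controls 1 to 3 and 9.53, 16.1 and 10.9 FPKM across Skiv2l-deleted libraries 1 to 3. The groups did not overlap, but the difference of −1.21 ± 0.32 (SE) on the log2 scale missed the threshold at a limma adjusted p of 0.063. Reads from exons outside the floxed part count toward it. Cd79a, the gene of the Cre driver, was lower in the deleted libraries (702 ± 53.8 against 392 ± 42.5 FPKM, SD, n = 3, limma adjusted p = 0.0123), a call lost without control 1 or Skiv2l-deleted 1 (limma adjusted p = 0.0516 and 0.0702). Of 12 genes that define early B cells, all 12 passed the expression filter. Their summed level was 3046 to 4122 FPKM in controls and 4428 to 5525 FPKM in deleted libraries. The 9 myeloid markers summed to 123, 504 and 1312 FPKM in the controls and to 408, 2300 and 76.0 FPKM in the deleted libraries. Control 3 and Skiv2l-deleted 2 had the highest sums of their groups, with Mpo at 343 and 641 FPKM against 4.30 to 8.99 FPKM in the other 4. Those 4 were not alike. Control 2 and Skiv2l-deleted 1 carried transcripts of the neutrophil series, with S100a9 at 217 and 165 FPKM against at most 1.98 FPKM in control 1 and Skiv2l-deleted 3. For Ngp and Ltf they exceeded control 3 and Skiv2l-deleted 2 (Ngp 58.3 and 49.6 against 25.2 and 29.7 FPKM, Ltf 18.5 and 15.8 against 2.84 and 2.74 FPKM). Results that rest on control 3 and Skiv2l-deleted 2 are given with and without them, and the 4 libraries left hold 1 with neutrophil transcripts in each genotype.

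Most of the program was not detectably different between the genotypes. Among the 21 sterol genes, 1 rose in Skiv2l-deleted pro-B cells, 0 fell and 20 did not pass, and the riser was Dhcr7. Among the 10 fatty acid genes, 2 rose, 0 fell and 8 did not pass, and both risers, Fads1 and Fads2, make polyunsaturated fatty acids. All 31 members passed the filter of 1 FPKM in at least 3 libraries. The test was limma on log2(FPKM + 1) over the 13539 genes that passed, with Benjamini-Hochberg adjustment and a threshold of 0.05. Over all those genes 4.97% were called higher and 3.87% lower (8.84% in either direction), so the sterol count lies at the background and the fatty acid count is a pair of genes out of 10. The median log2 fold change was 0.13 for sterol genes and 0.36 for fatty acid genes, beside 0.06 for all genes tested. Values lay above 0 in 16 of 21 sterol and 9 of 10 fatty acid genes, beside 57.8% of all genes. The groups did not overlap in 4 sterol genes with higher and 1 with lower deleted values, and in 3 fatty acid genes with higher values, where the shares over all genes were 19.9% higher and 12.3% lower. The 3 mice of a group set the precision, and with 3 against 3 an exact permutation test of 1 gene cannot go below p = 0.1.

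**Figure D1:**
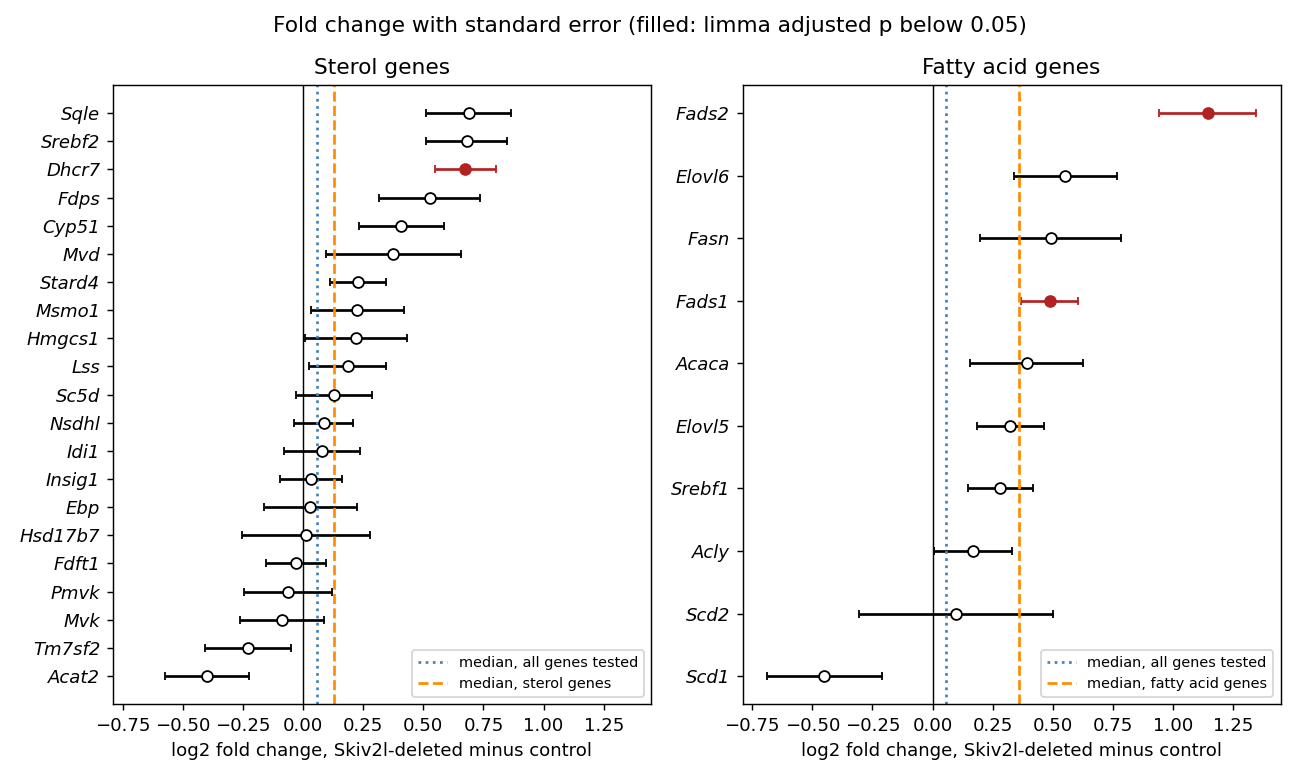
Log2 fold change (x axis, Skiv2l-deleted minus control on the log2(FPKM + 1) scale) of each sterol gene (left) and fatty acid gene (right), with its standard error. Filled points passed the test. Fads2 stands alone at 1.14, Sqle, Srebf2 and Dhcr7 lead the sterol genes at 0.69, 0.68 and 0.68, and Acat2 and Scd1 are the lowest of their branches at −0.40 and −0.45.

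The regulators were first examined. Srebf2, which encodes the SREBP that mainly drives sterol genes, measured 28.0, 21.4 and 28.4 FPKM across the controls and 42.6, 34.9 and 49.2 FPKM across the deleted libraries. Each deleted library lay above each control, by 1.63-fold on the means, yet the gene missed the threshold (log2 fold change 0.68 ± 0.17, limma adjusted p = 0.0532). Without control 3 and Skiv2l-deleted 2 it passed (0.88, limma adjusted p = 0.0298). Over 20 alternative settings and library omissions Srebf2 passed in 5. Its limma adjusted p was highest, at 0.195, without Skiv2l-deleted 3. Srebf1, which encodes the SREBP that favours fatty acid genes, stood at 24.2, 22.0 and 23.9 FPKM against 30.6, 24.0 and 31.8 FPKM. Skiv2l-deleted 2 lay within the controls' range, and the difference did not pass (0.28 ± 0.13, limma adjusted p = 0.251). The files do not separate its protein forms. Insig1, itself an SREBP target that retains SCAP, stood at 8.14, 6.40 and 7.16 FPKM against 7.61, 7.31 and 7.25 FPKM. All 3 deleted values fell inside the controls' range (log2 fold change 0.03 ± 0.13, limma adjusted p = 0.915).

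In the mevalonate segment no gene passed. Hmgcs1, which condenses acetyl-CoA units into the precursor of mevalonate, measured 12.4, 12.0 and 8.43 FPKM across the controls and 13.7, 9.70 and 15.4 FPKM across the deleted libraries. The ranges overlapped (log2 fold change 0.22 ± 0.21, limma adjusted p = 0.578). Within each genotype the lowest value belonged to the library with the highest myeloid sum, control 3 or Skiv2l-deleted 2. Acat2, the cytosolic thiolase that supplies acetoacetyl-CoA, was the only sterol gene with every deleted library below every control. It stood at 16.9, 16.7 and 24.9 FPKM against 13.3, 15.9 and 13.8 FPKM (−0.40 ± 0.18, limma adjusted p = 0.21). The kinase genes Mvk and Pmvk had log2 fold changes of −0.09 and −0.06, with control 3 the highest of all 6 libraries for each. Mvd, the decarboxylase that makes isopentenyl pyrophosphate, was nearly equal in the 3 deleted libraries (4.20, 4.13 and 4.13 FPKM) and uneven in the controls (2.25, 2.06 and 5.31 FPKM). Its difference did not pass in all 6 libraries (0.38, limma adjusted p = 0.464). It passed in the 4 without control 3 and Skiv2l-deleted 2 (0.71, limma adjusted p = 0.0334). Of 19 alternatives that tested Mvd, 3 called it, and its limma adjusted p reached 0.744 without control 2.

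The isoprenoid and squalene steps held 1 gene close to the threshold. Sqle, the squalene epoxidase and a rate-limiting enzyme of the pathway, measured 5.31, 5.67 and 6.93 FPKM across the controls and 11.8, 8.04 and 11.0 FPKM across the deleted libraries. The groups did not overlap and the means differed 1.73-fold, but the adjusted value fell just short (log2 fold change 0.69 ± 0.18, limma adjusted p = 0.057). It passed without control 3 and Skiv2l-deleted 2 (0.94, limma adjusted p = 0.0145). Sqle was called in 5 of 20 alternatives, and its limma adjusted p reached 0.213 without Skiv2l-deleted 1. Fdps, which makes farnesyl pyrophosphate, stood at 14.4, 12.8 and 21.6 FPKM against 20.2, 27.4 and 22.8 FPKM. Control 3 lay inside the deleted range, and the gene went from missing (0.53 ± 0.21, limma adjusted p = 0.174) to passing in the 4 remaining libraries (0.62, limma adjusted p = 0.0345). The neighbouring enzymes showed smaller differences. Idi1, the isomerase, Fdft1, squalene synthase, and Lss, the cyclase that makes lanosterol, had log2 fold changes of 0.08, −0.03 and 0.19. Lss was the least abundant member, at 1.34 to 1.62 FPKM in controls and 1.58 to 2.35 FPKM in deleted libraries.

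After lanosterol, Dhcr7 was the only one of 8 enzyme genes to pass. Dhcr7 (chromosome 7, 143823145 to 143848410) encodes the reductase that makes cholesterol from 7-dehydrocholesterol. It measured 9.81, 8.43 and 7.77 FPKM across the controls and 14.9, 13.5 and 14.7 FPKM across the deleted libraries. The groups were well apart, 8.67 ± 1.04 against 14.4 ± 0.753 FPKM (SD, n = 3). The log2 fold change was 0.68 ± 0.13, with a limma adjusted p of 0.0235. The difference was 0.65 without control 3 and Skiv2l-deleted 2 and 0.73 between those 2 libraries alone. The call was lost without control 2 or any one of the 3 deleted libraries (highest limma adjusted p = 0.118). Cyp51, the lanosterol demethylase, was next, at 5.13 to 6.60 FPKM in controls and 6.47 to 9.83 FPKM in deleted libraries (0.41 ± 0.18, limma adjusted p = 0.205). The methyl-removing enzymes Msmo1, Nsdhl and Hsd17b7 had log2 fold changes of 0.23, 0.09 and 0.01. The isomerase Ebp, the desaturase Sc5d and the reductase Tm7sf2 had 0.03, 0.13 and −0.23. Tm7sf2 was the most abundant sterol member in controls, at 25.0 to 35.0 FPKM. Stard4, a carrier that moves cholesterol between membranes, stood at 8.04, 7.18 and 7.84 FPKM against 9.17, 8.71 and 9.66 FPKM. Its groups did not overlap, but by 1.19-fold only, and it did not pass (0.23 ± 0.12, limma adjusted p = 0.273).

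**Figure D2:**
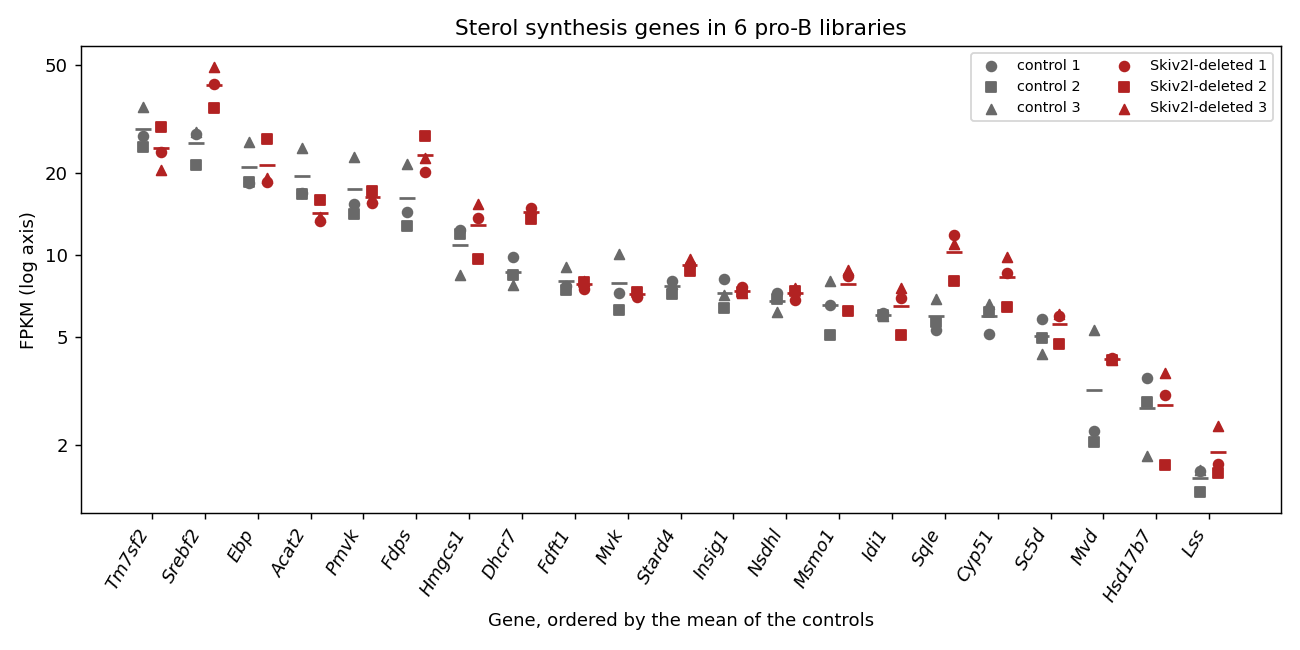
FPKM (log axis) of the 21 sterol genes in the 3 control (grey) and 3 Skiv2l-deleted (red) libraries, with horizontal lines at the group means. Dhcr7, Sqle, Srebf2 and Stard4 have all red points above all grey points, Acat2 has them below, and the other genes overlap.

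In the fatty acid branch the enzymes that make palmitate did not pass. Acly, which splits citrate into cytosolic acetyl-CoA, was the most abundant member of all 31. It measured 70.2, 71.7 and 48.8 FPKM across the controls and 71.3, 67.1 and 73.4 FPKM across the deleted libraries (log2 fold change 0.17 ± 0.16, limma adjusted p = 0.577). Control 3 alone was low. Acaca, the carboxylase that commits acetyl-CoA to fatty acids, stood at 4.64, 6.79 and 4.32 FPKM against 9.44, 5.25 and 7.08 FPKM. Fasn, the multidomain synthase, stood at 10.9, 14.6 and 8.55 FPKM against 24.2, 11.3 and 14.8 FPKM. Both sets overlapped, with Skiv2l-deleted 1 the highest library for each gene (0.39 and 0.49, limma adjusted p = 0.357 and 0.353).

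Both fatty acid genes that passed encode desaturases that act on dietary polyunsaturated precursors. Fads2 (chromosome 19, 10064164 to 10101503), the first enzyme of that route, measured 13.0, 11.2 and 11.8 FPKM across the controls and 30.0, 20.2 and 34.8 FPKM across the deleted libraries. The lowest deleted value exceeded the highest control value by more than the whole controls' range. The means were 12.0 ± 0.939 and 28.3 ± 7.46 FPKM (SD, n = 3), 2.36-fold apart, with a log2 fold change of 1.14 ± 0.20 (limma adjusted p = 0.0199), the largest among the 31 members. The difference was 1.35 without control 3 and Skiv2l-deleted 2 and 0.73 between those 2. Leaving out either of controls 1 and 2, or either of deleted libraries 1 and 3, ended the call (limma adjusted p up to 0.09). Fads1 (chromosome 19, 10182888 to 10196870), the next desaturase of the route, stood at 14.2, 14.2 and 15.0 FPKM against 21.3, 18.3 and 22.6 FPKM. The controls were tight, every deleted library was above them, and the gene passed by a narrow margin (0.49 ± 0.12, limma adjusted p = 0.049). Any omission of 1 library other than control 3 put it back over the threshold (highest limma adjusted p = 0.216). The call was also lost in 8 of the 14 other alternatives, among them TPM, median scaling and quantile normalization (limma adjusted p = 0.0812, 0.0712 and 0.0761).

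The stearoyl-CoA desaturases, which make monounsaturated fatty acids, went no clear way. Scd1 measured 14.7, 14.7 and 9.98 FPKM across the controls and 10.7, 6.43 and 11.1 FPKM across the deleted libraries, and was the only fatty acid gene with a negative value (−0.45 ± 0.24, limma adjusted p = 0.296). Scd2 stood at 33.3, 56.7 and 23.5 FPKM against 54.7, 22.5 and 44.2 FPKM. Its spread within each genotype was over 2-fold and exceeded the difference of the means (0.10 ± 0.40, limma adjusted p = 0.917). Scd1 and Scd2 are paralogs, and how the deposited values treat any reads they share is unknown, so their split is uncertain. Neither elongase passed with all 6 libraries. Elovl5, which lengthens polyunsaturated chains, stood at 35.6, 43.6 and 30.6 FPKM against 45.4, 46.0 and 45.4 FPKM, without overlap but short of the threshold (0.32 ± 0.14, limma adjusted p = 0.207). Elovl6, which lengthens palmitate, stood at 27.6, 25.7 and 20.8 FPKM against 41.2, 26.3 and 44.4 FPKM. Its difference was 0.55 ± 0.21 (limma adjusted p = 0.165), and it passed without control 3 and Skiv2l-deleted 2 (0.66, limma adjusted p = 0.0191). Elovl6 was called in 4 of 20 alternatives, and its limma adjusted p reached 0.422 without Skiv2l-deleted 3.

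**Figure D3:**
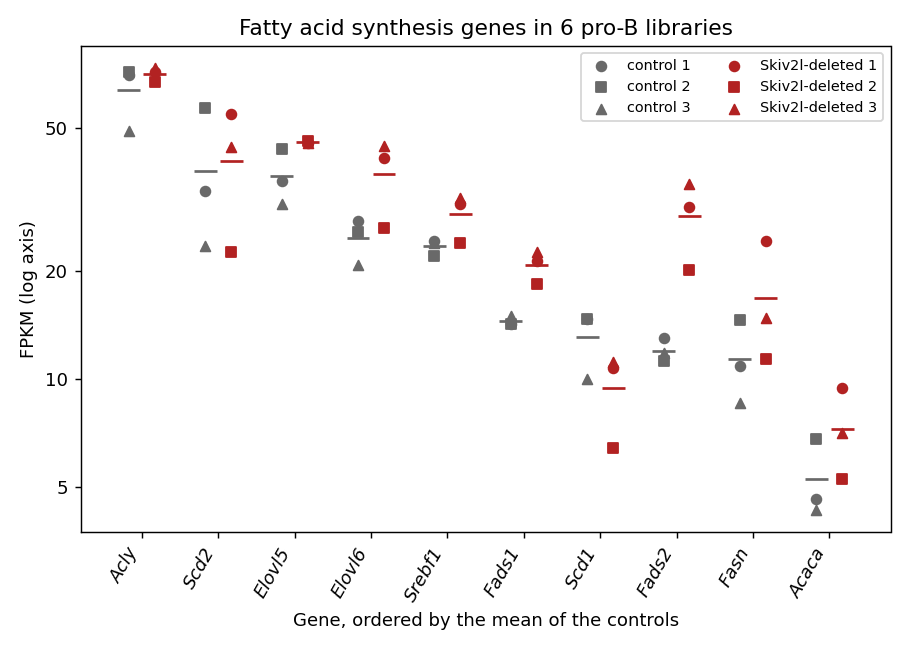
FPKM (log axis) of the 10 fatty acid genes in the control (grey) and Skiv2l-deleted (red) libraries, with lines at the group means. Fads1, Fads2 and Elovl5 have all red points above all grey points, while Scd2 spreads from 22.5 to 56.7 FPKM across both genotypes.

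Control 3 and Skiv2l-deleted 2 shared a position within their genotypes in several members. In 6 of the 10 fatty acid genes (Fasn, Acaca, Acly, Scd1, Scd2 and Elovl6), control 3 was the lowest control and Skiv2l-deleted 2 the lowest deleted library, beside 22.8% of all genes tested. In 0 of 10 both were the highest, beside 27.9% of all genes. Among sterol genes both were lowest in 5 of 21 (Hmgcs1, Idi1, Dhcr7, Sc5d and Hsd17b7) and highest in 6 (Fdps, Mvk, Pmvk, Acat2, Tm7sf2 and Ebp), near the shares over all genes. In the 4 libraries without these 2, 5 sterol genes rose (Dhcr7, Sqle, Srebf2, Fdps and Mvd), as did Fads1, Fads2 and Elovl6, and 0 members fell, where 7.3% of 12909 genes were called higher. Median log2 fold changes were then 0.22 for sterol and 0.44 for fatty acid genes, beside 0.05 for all genes. Between the other 2 libraries alone, with no replicate, 10 of 21 sterol and 8 of 10 fatty acid genes were higher in Skiv2l-deleted 2, beside 58.2% of all genes. The part of the myeloid transcripts in these differences was not tested.

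**Figure D4:**
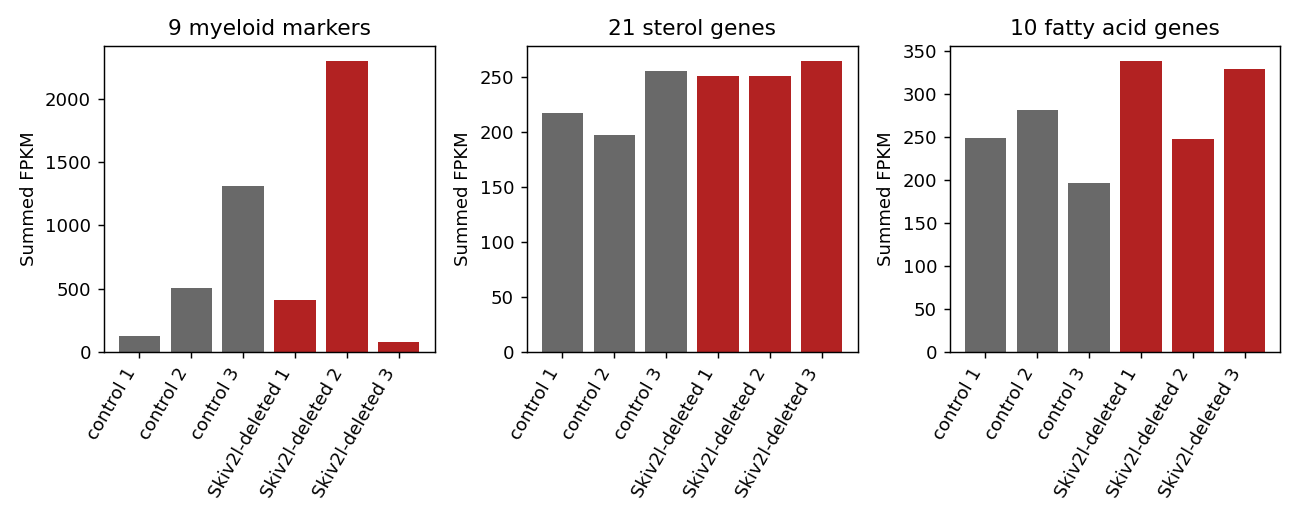
Summed FPKM of 9 myeloid markers (left), the 21 sterol genes (middle) and the 10 fatty acid genes (right) in each library, controls in grey and Skiv2l-deleted in red. Control 3 and Skiv2l-deleted 2 have the highest myeloid sums and, within their genotypes, the lowest fatty acid sums.

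Summed over the branch, fatty acid genes gave 248, 281 and 197 FPKM in the controls and 339, 247 and 330 FPKM in the deleted libraries, and the groups overlapped. The sterol sums were 218, 197 and 256 FPKM against 252, 252 and 265 FPKM, with control 3 inside the deleted range. These sums are dominated by the few abundant members.

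Other genes of lipid metabolism, 35 in 4 lists, were read from the same test. Of these, 26 passed the expression filter, 3 rose, 0 fell and 23 did not pass, with a median log2 fold change of 0.21. Over all genes tested, 4.97% were called higher and 3.87% lower, with a median of 0.06. Scap, the escort that carries SREBP to the Golgi, rose from a control mean of 32.1 ± 6.05 (SD, n = 3) to 60.7 ± 2.24 FPKM, by 0.91 ± 0.15 on the log2 scale (limma adjusted p = 0.0165). It was the only 1 of 7 genes of SREBP processing and sterol sensing to pass. Slc25a1, the mitochondrial citrate carrier that feeds Acly, rose from 36.6 ± 4.20 to 70.4 ± 11.1 FPKM (0.92 ± 0.15, limma adjusted p = 0.0167), 1 of 8 tested genes of fatty acid synthesis outside the members. Npc1, which exports cholesterol from lysosomes, rose from 5.06 ± 0.978 to 9.05 ± 0.523 FPKM (0.74 ± 0.16, limma adjusted p = 0.0329), 1 of 8 tested genes of sterol uptake, efflux and storage. Among 3 other sterol synthesis genes 0 passed. The calls of Scap and Slc25a1 were lost without control 1, Skiv2l-deleted 1 or Skiv2l-deleted 3, that of Slc25a1 also without control 2, and that of Npc1 in every omission of 1 library except that of control 3. With no expression filter all 3 calls ended (limma adjusted p = 0.0548, 0.0565 and 0.0835).

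Markers of other cells were read beside these values, where 4.97% of all genes tested were called higher and 3.87% lower in deleted libraries. The 9 adipocyte and stromal markers, the lipid-storing cells of marrow included, summed to 0.413 to 1.66 FPKM, with Plin1, Cfd and Lepr listed at 0 in every library. Of 7 T and NK cell markers, 6 did not pass the filter in these libraries, while Klrb1c rose (1.65, limma adjusted p = 0.0061). Of the 5 tested plasma cell markers 3 were lower and 1 higher in deleted libraries. Igha was at 164 to 380 FPKM in controls and at 0 to 0.302 FPKM in deleted libraries, and the summed 7 markers were 504 to 809 and 397 to 420 FPKM. Mzb1, the marker that was higher, held most of the deleted sums, at 336 to 363 FPKM. The erythroid list summed to 40.3 to 42.0 FPKM in controls and to 57.7, 262 and 56.1 FPKM in the deleted libraries, with Skiv2l-deleted 2 highest, and 1 of 5 tested, Car2, rose. Car2 held most of each sum outside Skiv2l-deleted 2, at 32.4 to 36.0 FPKM in controls and 49.3 and 52.4 FPKM in Skiv2l-deleted 1 and 3. The globin gene Hba-a1 was at 59.4 FPKM in Skiv2l-deleted 2 and at most 2.38 FPKM in any other library. Among 20 genes of G2 and mitosis, 14 fell and 0 rose, and their summed level was 2653 to 3235 FPKM in controls and 1601 to 1752 FPKM in deleted libraries. How far differing early B cell genes, plasma cell RNA and lower mitotic transcripts entered the lipid gene values was not tested. In sorted bulk cells, fewer cells of a type and less RNA per cell cannot be told apart.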

How the data were processed

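Messenger RNA was measured in sorted pro-B cells of 3 control and 3 Skiv2l-deleted mice, with a kit that keeps strand, per the labels' protocols. For every library the authors deposited a table of FPKM, TPM and coverage (a signal, the mean depth per base) for each gene, per the file headers. The submitters' processing notes name GRCm38 as the build. The sources used here do not give the aligner, the quantifier or whether it used strand, which leaves overlapping and antisense genes uncertain. Identifiers on several lines, 7 to 9 a library, were summed. Since all 37 mitochondrial genes are listed at 0, a 0 means only that it is listed so.

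The tables hold no counts. Bases on low genes were whole multiples of the most frequent step (78 bases, within 0.1 of a step) in 39.9% to 42.0% of values, so whole reads were not recovered. No count model was used.

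Limma 3.58.1 in R 4.3.3 (mean-variance trend, genotype as the only term) was run on log2(FPKM + 1) for genes that reached 1 FPKM in at least 3 libraries, and checked on simulated data. The pseudocount makes changes at low levels look smaller. Benjamini-Hochberg adjustment ran over all genes tested. The labels do not say that replicates were processed separately, and p-values measure the spread between these libraries. The members and all lists were chosen with earlier results of these data known. All members are accounted for. Values per library were given for members that passed or whose groups did not overlap, for Srebf1, Srebf2, Insig1, Hmgcs1, Sqle, Fasn, Acaca, Acly, Scd1 and Scd2, and for some others near them. Other pathway genes were named if they passed. Alternatives numbered 20: pseudocount, filter, TPM, scaling, test options, a replicate block and omitted libraries, plus 1 added after seeing the data, a covariate for control 3 and Skiv2l-deleted 2.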

Additional observations from a re-analysis of the deposited data

How the results depend on the processing

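All 20 alternatives left most members short of the threshold, and 608 of the single-gene values kept their direction and side of it. Sterol genes called numbered 0 with no filter, 2 with a filter of 5 FPKM, 6 with array weights, 5 in the 4 libraries left after removing control 3 and Skiv2l-deleted 2, and 5 (4 higher, 1 lower) with a covariate for those 2, where over all genes 1.81%, 10.1%, 25.5%, 13% and 19.4% were called. Fatty acid genes called numbered 1 with a pseudocount of 5, with TPM, with median scaling, with quantile normalization, with immunoglobulin, T cell receptor and nuclear mitochondrial copies left out, and with no trend (7.01% to 8.96% of all genes called), Fads1 being the gene lost in each, 0 with no filter, and 4 with array weights or (3 higher, 1 lower) the covariate. Other pathway genes called numbered 2 (1 higher, 1 lower) with no filter, 9 (8 higher, 1 lower) with array weights, 6 in the 4 libraries and 7 with the covariate. With 1 library left out, sterol genes called ranged from 0 (control 2, Skiv2l-deleted 1 or Skiv2l-deleted 3) to 5 (control 3), fatty acid genes from 0 (controls 1 or 2, Skiv2l-deleted 1 or 3) to 2, and other pathway genes from 0 (control 1, Skiv2l-deleted 1 or 3) to 5 (control 3). Over all genes 13.1% were called without control 3, 2.86% and 3.55% without controls 1 and 2, and 1.38%, 5.01% and 1.35% without Skiv2l-deleted 1, 2 and 3. The genes lower with the covariate were Acat2 and Scd1.

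Skiv2l passed with TPM (log2 fold change −1.24), quantile normalization (−1.24), array weights (−1.13), in the 4 libraries (−1.08) and with the covariate (−1.21), and in 0 of 6 omissions (−1.45 to −0.88). Cd79a lost its call with no filter (−0.84) and without control 1 or Skiv2l-deleted 1, and its values without 1 library were −0.93 to −0.80. The replicate block gave 0 sterol, 1 fatty acid and 1 other pathway gene called, and 2.7% of all genes, with Cd79a at −0.84 (limma adjusted p = 0.0504). Same-numbered libraries did not deviate together (correlations of 0.0939, −0.428 and −0.355). In 0 of 3 pairs did the libraries correlate best with their own number. The highest correlations joined control 1 with Skiv2l-deleted 3 (0.413), control 2 with Skiv2l-deleted 1 (0.488) and control 3 with Skiv2l-deleted 2 (0.557). The main fit, with genotype as its only term, did not model these pairs, and their cause was not tested.

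Signs turned only in members that did not pass. Under median scaling Insig1, Hsd17b7 and Ebp were at −0.013, −0.023 and −0.018. Under quantile normalization Idi1, Insig1, Hsd17b7 and Ebp were at −0.00051, −0.037, −0.075 and −0.0065. With the immunoglobulin and mitochondrial copies left out, Hsd17b7 and Ebp were at −0.012 and −0.0030. With array weights Fdft1, Insig1, Mvk and Pmvk were at 0.034, −0.050, 0.0080 and 0.056. In the 4 libraries Fdft1, Mvk and Pmvk were at 0.039, 0.074 and 0.10. Over the omissions of 1 library Ebp ranged from −0.13 to 0.19, Insig1 from −0.042 to 0.11, Fdft1 from −0.077 to 0.049, Mvk from −0.22 to 0.085, Pmvk from −0.19 to 0.14, Hsd17b7 from −0.18 to 0.25, Acly from −0.0082 to 0.26, Scd2 from −0.19 to 0.46 and Idi1 from −0.020 to 0.23. The cause of these changes was not tested. Read counts per gene are unknown, and the largest standard errors among the members were those of Scd2 (0.40), Fasn (0.29), Mvd (0.28) and Hsd17b7 (0.27).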

Other observations

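Fads1 and Fads2 lie in a cluster on chromosome 19 with another desaturase gene, Fads3, which was looked at after the values of the pair were seen. Fads3 (chromosome 19, 10041548 to 10059671) measured 0.863, 1.03 and 1.33 FPKM across the controls and 4.34, 2.17 and 3.89 FPKM across the Skiv2l-deleted libraries. Every deleted library lay above every control, and the gene passed the same test (log2 fold change 1.08 ± 0.23, limma adjusted p = 0.0328), from levels close to the expression filter. The gene rose from 1.07 ± 0.235 to 3.47 ± 1.15 FPKM (SD, n = 3). Leaving out either of controls 1 and 2, or either of deleted libraries 1 and 3, ended the call (limma adjusted p up to 0.141). It also ended with quantile normalization, no filter and the replicate block (limma adjusted p = 0.0529, 0.112 and 0.0792), and the log2 fold change was 1.57 with a pseudocount of 0.1 and 0.47 with one of 5. The genes just beyond Fads1 did not pass. Fen1, a flap endonuclease of DNA replication, had a log2 fold change of −0.40 (limma adjusted p = 0.135) and Tmem258, a subunit of the oligosaccharyltransferase, had 0.04 (limma adjusted p = 0.906).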
